A study of Homo sapiens with 6 samples.

Results

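The 44 genes described here encode the chains of the collagens, chosen as every protein-coding gene in the deposited expression table named COL, a number, A and a number, 44 of 58735 genes in the table. Their RNA was measured by bulk RNA sequencing in SK-MES-1 cells, an established line grown from a human lung squamous cell carcinoma. The 3 conditions were sampled with 2 libraries each: control cells named NC, and cells of the knockdown groups si1 and si2, in which the keratin gene KRT6A was targeted by a transient knockdown. All libraries come from this 1 cell line, and the labels give neither the reagents nor the time after knockdown. They do not say that replicates 1 and 2 were separate cultures, so the spread behind each p-value may be technical.

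Collagens are secreted or membrane proteins of 3 chains wound into a triple helix. Glycine, the smallest amino acid, recurs in the helix with 2 other residues between its positions, so the coding sequence repeats the motif Gly-X-Y. Fibrillar collagens form the fibrils of connective tissue, collagen IV forms the sheet of the basement membrane under epithelia, collagen VI forms beaded filaments around cells, and collagen VII anchors the basement membrane to the tissue below. The transmembrane collagens stay in the cell membrane, with their helices outside the cell. Chains are made in the endoplasmic reticulum, hydroxylated, folded with the help of chaperones, exported in large carriers, trimmed and cross-linked.

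The repeat can be read in the genes' own sequence. The stretches of 21 codons below were read from principal coding transcripts of GENCODE 29 on GRCh38, 5′ to 3′ along the coding strand, with glycine codons in capitals. They show the start of the longest unbroken run of Gly-X-Y in COL1A1, which begins at codon 179, and the end of the longest run in COL4A1, COL4A2 and COL13A1, where the spacing of the glycine codons breaks off.

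COL1A1: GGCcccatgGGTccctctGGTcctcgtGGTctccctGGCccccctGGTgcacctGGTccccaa
COL4A1: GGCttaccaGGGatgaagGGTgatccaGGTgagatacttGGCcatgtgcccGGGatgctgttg
COL4A2: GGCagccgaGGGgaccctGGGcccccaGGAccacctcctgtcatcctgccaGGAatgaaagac
COL13A1: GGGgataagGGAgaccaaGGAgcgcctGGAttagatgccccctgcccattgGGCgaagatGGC

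In COL1A1 each of the 7 glycine codons is followed by 2 others, while COL4A1, COL4A2 and COL13A1 hold 6, 5 and 6 glycine codons at uneven distances. Among fibrillar chains the longest run was 338 triplets in COL1A1 and in COL5A1, 217 in COL27A1 and 216 in COL24A1. It was 87 triplets in both collagen VI chains, COL6A1 and COL6A2. In the collagen IV chains it was 66 triplets in COL4A2, 40 in COL4A1 and in COL4A5, and 38 in COL4A6, a range that also holds the transmembrane chains COL13A1 (44) and COL17A1 (56). COL12A1, a fibril-associated collagen, had 7.64% of its codons in such runs, against 72.8% in COL1A1 and 78.6% in COL4A1.

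**Figure D1:**
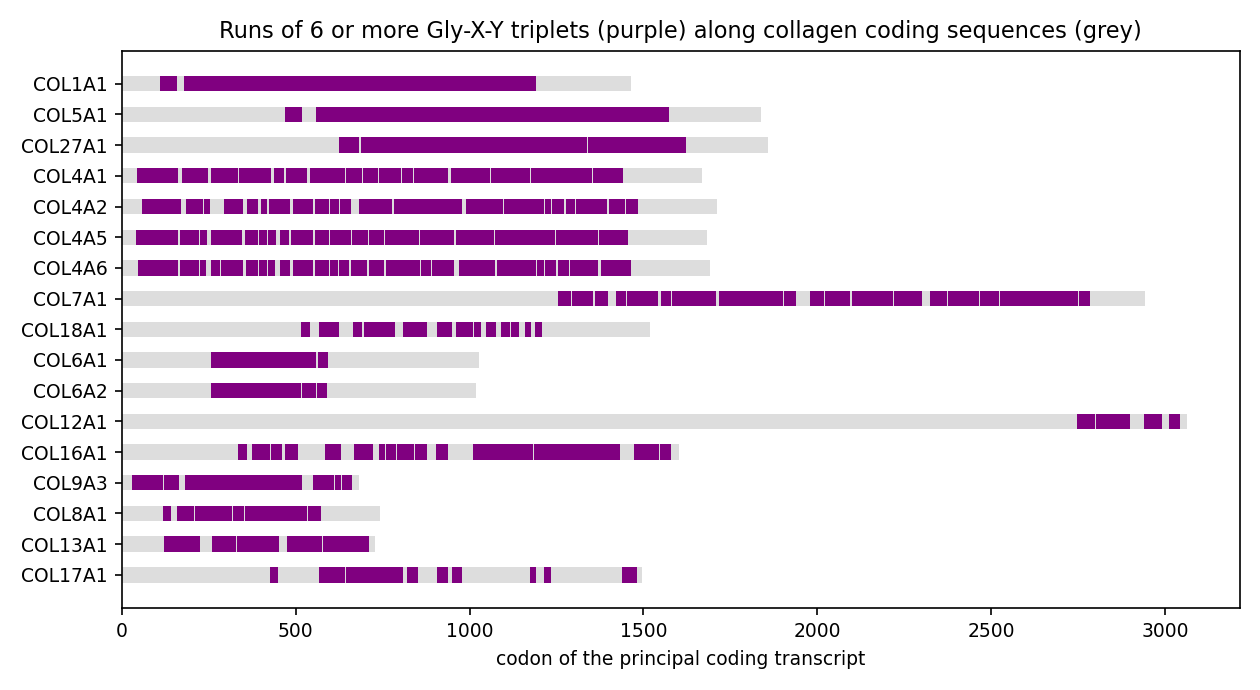
Position of unbroken runs of at least 6 Gly-X-Y triplets (purple) along the codons of the principal coding transcript (grey, horizontal axis in codons) of the 15 tested collagens and of COL13A1 and COL17A1. COL1A1 and COL5A1 each carry 1 run of 338 triplets beside a short one, the collagen IV chains many short runs, and COL12A1 a few at its end.

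Levels are FPKM as deposited (fragment counts divided by gene length and library size), so different genes are compared per length. The 6 libraries held 14948607 to 17401392 reads recovered from these values. Log2 fold changes are on the scale log2(FPKM + 1), which understates the change of low genes, and come from limma fitted to all 6 libraries. The test covered the 12319 genes that averaged 1 FPKM or more, and "called" means a Benjamini-Hochberg adjusted p under 0.05 across those genes. KRT6A had 0 reads in all 6 libraries, NC included, so the targeted gene could not be used to check the labels.

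Of the 44 collagens, 15 reached a mean of 1 FPKM and were tested, and 29 were not. Of those 29, 17 had more than 20 reads over the 6 libraries, 6 had 1 to 20, and 6 had 0: COL1A2, COL2A1, COL5A3, COL6A5, COL9A1 and COL26A1. The collagens together took 0.373% to 0.481% of the reads of a library. Collagen VI led, with COL6A1 (ENSG00000142156, chr21:45981737-46005050, hg38) at 244 ± 10.9 FPKM and COL6A2 (ENSG00000142173, chr21:46098097-46132849) at 139 ± 2.87 FPKM in NC (SD, n = 2). COL18A1 and COL5A1 followed at 33.8 ± 2.78 FPKM and 33.8 ± 1.62 FPKM, a difference within their spread. The remaining tested collagens ran in NC from COL4A2 at 23.1 ± 0.255 FPKM through COL7A1 (18.8 ± 1.19 FPKM) and COL1A1 (15.4 ± 0.237 FPKM) down to COL9A3 at 1.17 ± 0.0612 FPKM. COL4A6, COL12A1, COL4A5 and COL4A1 lay close together at 7.74, 7.40, 7.37 and 6.97 FPKM. The length behind an FPKM moves this order, since the deposited gene length merges all exons of a gene. Per length of the principal coding transcript, COL4A2 moved from rank 5 to rank 3 in NC, COL4A1 from 11 to 8 and COL12A1 from 9 to 12, while COL6A1 and COL6A2 stayed first and second.

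**Figure D2:**
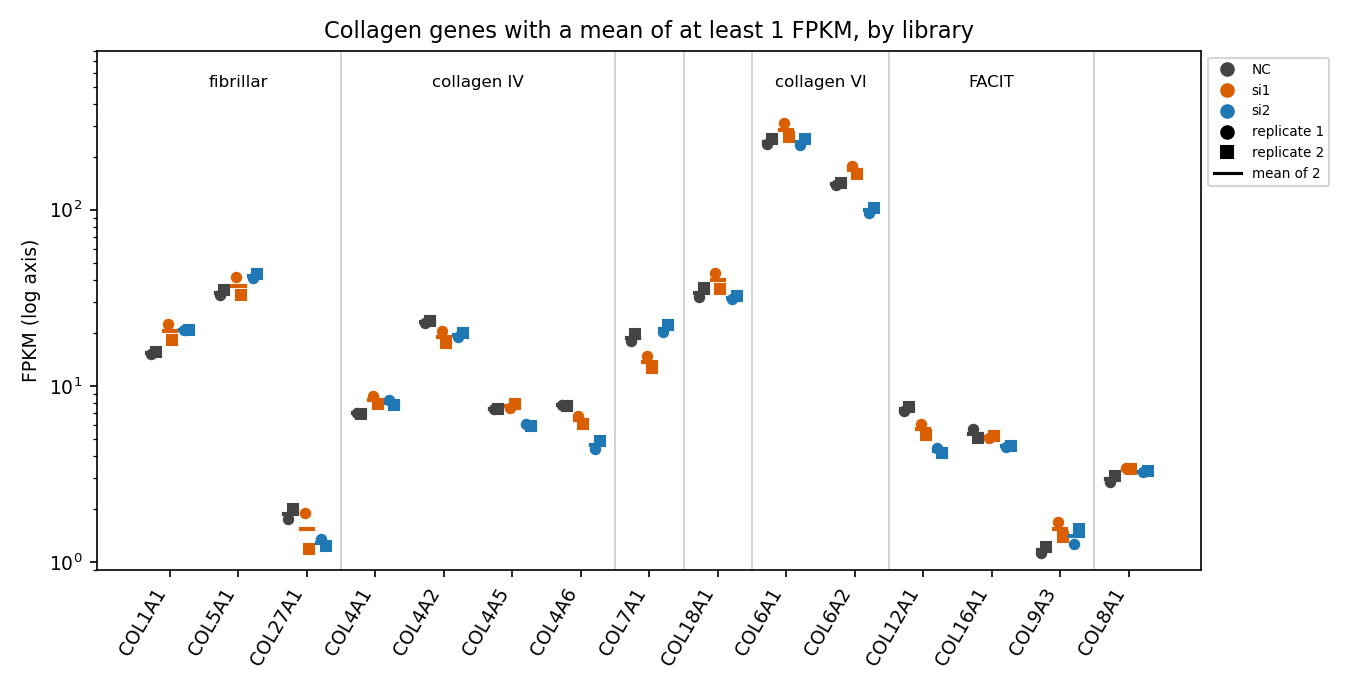
FPKM on a log axis of the 15 collagens with a mean of at least 1 FPKM, in each of the 2 NC, 2 si1 and 2 si2 libraries, with a line at each group's mean. COL6A1 and COL6A2 stand at 95.7 FPKM or more in each library, and COL27A1 and COL9A3 below 2.

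In the mean of both knockdown groups, COL1A1 rose and COL12A1 and COL4A6 fell. These are 3 of 15 tested collagens, 1 up and 2 down, where 20.5% of all tested genes were called (8.73% up and 11.8% down), so the collagens' share was near the background. With the 4 knockdown libraries fitted as 1 group, 0 of the 15 passed. In si1 against NC, COL1A1 and COL6A2 rose and COL12A1 and COL7A1 fell, 4 of 15, where 22.4% of all genes were called (9.47% up and 12.9% down). In si2 against NC, COL1A1 rose and COL12A1, COL4A6, COL6A2 and COL4A5 fell, 5 of 15, where 29.0% of all genes were called (13.6% up and 15.4% down). The median log2 fold change of the 15 was −0.10 for both groups together, 0.12 in si1 and −0.09 in si2, beside −0.01, −0.01 and 0.00 over all tested genes. The comparisons with NC share its 2 libraries. In bulk RNA, fewer cells of a type and less RNA per cell cannot be told apart.

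**Figure D3:**
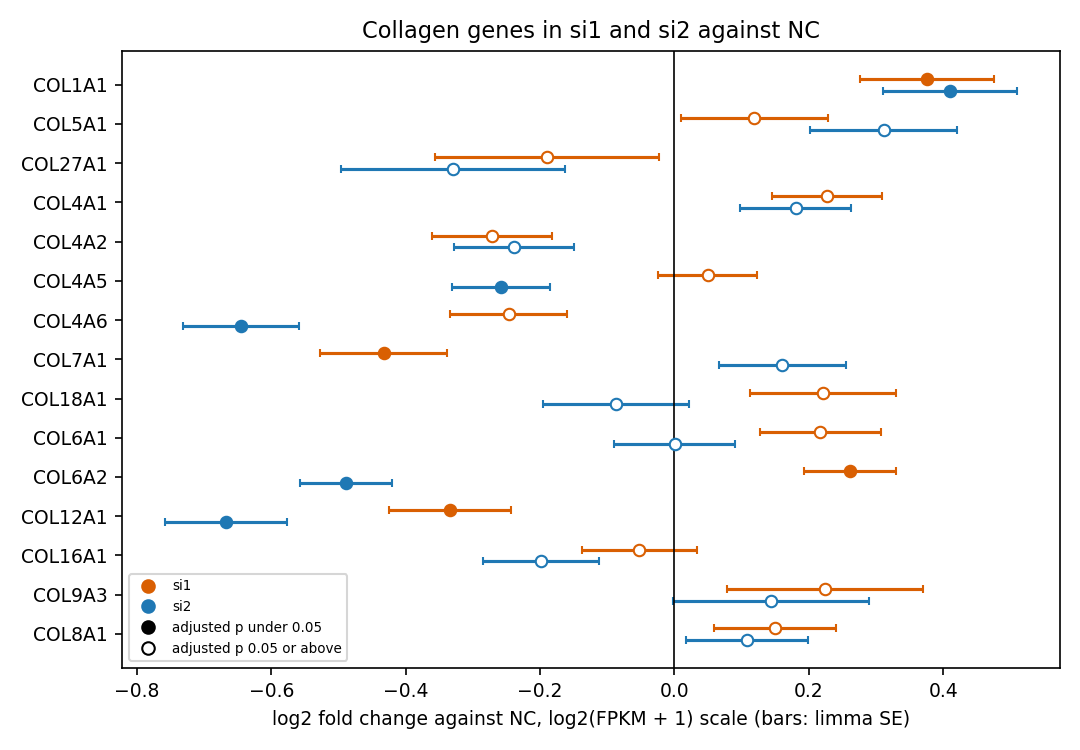
Log2 fold change against NC on the log2(FPKM + 1) scale (horizontal axis) with limma's SE, for the 15 tested collagens in si1 and si2; filled points have an adjusted p under 0.05. COL1A1 lies above 0 in both groups, COL12A1 below 0 in both, and COL6A2 on opposite sides.

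Among the fibrillar collagens, 3 of 11 genes were tested, and 1 rose in each knockdown group. COL1A1 (ENSG00000108821, chr17:50183289-50201632), the chain that makes up most of collagen I, stood at 15.2 and 15.5 FPKM in NC, at 22.5 and 18.2 in si1, and at 20.8 and 20.8 in si2. Both libraries of each knockdown group lay above both NC libraries. Its log2 fold change was 0.39 (SE 0.09, adjusted p = 0.0209) for both groups together, 0.38 (SE 0.10, adjusted p = 0.0363) in si1 and 0.41 (SE 0.10, adjusted p = 0.0225) in si2. The difference between si2 and si1 was 0.03 (SE 0.10, adjusted p = 0.814), and 0.25 (adjusted p = 0.0482) after the GC correction described below. Leaving out NC replicate 1, NC replicate 2, si2 replicate 1 or si2 replicate 2 ended the call for both groups together (adjusted p = 0.135, 0.117, 0.0554 and 0.054) and the call in si2 (adjusted p = 0.107, 0.0967, 0.0938 and 0.0858). The call in si1 was lost with any library but si1 replicate 2 left out (adjusted p = 0.059 to 0.162). Without the filter the comparisons with NC all missed the threshold (adjusted p = 0.098 for both groups together, 0.136 in si1 and 0.0962 in si2). COL1A2, which encodes the other chain of the usual collagen I, had 0 reads throughout. The limit of 3 reads puts COL1A1 at least 945-fold higher than COL1A2 in NC replicate 1 and at least 1370-fold higher in si1 replicate 1, the lowest and highest of the 6 bounds, per gene length.

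COL5A1 (chr9:134641774-134844843), a chain of collagen V, which starts and limits fibrils of collagen I, stood at 32.6 and 34.9 FPKM in NC, at 41.3 and 32.7 in si1, and at 41.1 and 43.2 in si2. The si2 libraries lay above the NC libraries, and the si1 libraries lay on both sides of NC replicate 2. The log2 fold change was 0.31 (SE 0.11, adjusted p = 0.0724) in si2 and 0.12 (SE 0.11, adjusted p = 0.482) in si1, neither past the threshold. Its partner chain COL5A2 had 18 and 19 reads in the NC libraries, 43 and 45 in si1, and 37 and 65 in si2. All 4 knockdown libraries lay above NC, at 0.314 to 0.577 FPKM against 0.145 in each NC library, too low for the filter. Without the filter, the log2 fold change of COL5A2 was 0.29 (SE 0.10, adjusted p = 0.229) for both groups together. On the recovered reads, with genes of a mean of at least 10 reads, limma-voom gave 1.40 (SE 0.42, adjusted p = 0.0142), an alternative chosen after seeing the data.

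COL24A1, a fibrillar chain of developing bone and eye, showed the same side: 60 and 59 reads in the NC libraries, 148 and 119 in si1, and 99 and 93 in si2. Each knockdown library held more than either NC library. The log2 fold change for both groups together was 0.35 (SE 0.11, adjusted p = 0.18) without the filter. It was 1.02 (SE 0.24, adjusted p = 0.00199) in the same limma-voom fit as for COL5A2. COL27A1, a fibrillar chain of cartilage, stood at 1.76 and 1.99 FPKM in NC, at 1.89 and 1.19 in si1, and at 1.34 and 1.22 in si2. The si2 libraries lay below the NC libraries, and the si1 libraries lay on opposite sides of si2 and overlapped NC. Its log2 fold change was −0.26 (SE 0.14, adjusted p = 0.248) for both groups together and −0.33 (SE 0.17, adjusted p = 0.183) in si2. With limma-voom on the recovered reads it was called lower in both, at −0.43 (adjusted p = 0.0188) and −0.54 (adjusted p = 0.0111). COL3A1, the chain of collagen III, was named after its values were seen: it had 0 reads in 5 libraries and 4 in si2 replicate 2.

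The basement membrane collagen IV family had 4 of 6 chains tested, and its members moved in different directions. In si2, COL4A6 and COL4A5 fell. COL4A6 (ENSG00000197565, chrX:108155607-108439497), the chain that joins COL4A5 in some epithelial basement membranes, stood at 7.82 and 7.66 FPKM in NC, at 6.70 and 6.05 in si1, and at 4.35 and 4.84 in si2. The NC libraries were highest, the si1 libraries lay between, and the si2 libraries were lowest, with no overlap between groups. The log2 fold change was −0.45 (SE 0.08, adjusted p = 0.00822) for both groups together, −0.64 (SE 0.09, adjusted p = 0.0026) in si2 and −0.25 (SE 0.09, adjusted p = 0.0863) in si1, where it missed the threshold. The value for si2 against si1 was −0.40 (SE 0.09, adjusted p = 0.0111). Leaving out NC replicate 1 or 2 ended the call for both groups together (adjusted p = 0.0785 and 0.0696), and that of si2 against si1 without si2 replicate 1 (adjusted p = 0.0716).

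COL4A5 (chrX:108439844-108697545), on the opposite strand next to COL4A6, stood at 7.38 and 7.36 FPKM in NC, at 7.46 and 7.86 in si1, and at 6.09 and 5.91 in si2. The si2 libraries were the lowest, and NC and si1 lay close together. Its log2 fold change was −0.26 (SE 0.07, adjusted p = 0.0374) in si2 and 0.05 (SE 0.07, adjusted p = 0.674) in si1, and si2 differed from si1 by −0.31 (SE 0.07, adjusted p = 0.0156). The call in si2 was lost with each NC and each si2 library left out, where the value ran from −0.28 to −0.24. As separate alternatives with all 6 libraries, a correction for GC content (adjusted p = 0.0539) and the fit without the filter (adjusted p = 0.0709) also lost it. The call for the difference from si1 was lost in fits without si2 replicate 1 and without si2 replicate 2.

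COL4A5 and COL4A6 are transcribed away from each other on chromosome X, with 346 bases between their gene models. The RefSeq promoter table (GRCh38.p14) gives the 250 bases before the start of COL4A5, chrX:108439588-108439837 on the plus strand, which lie in this gap. They are shown because both genes were lower in si2; capitals mark the matches to CCAAT, read on either strand.

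COL4A6-COL4A5: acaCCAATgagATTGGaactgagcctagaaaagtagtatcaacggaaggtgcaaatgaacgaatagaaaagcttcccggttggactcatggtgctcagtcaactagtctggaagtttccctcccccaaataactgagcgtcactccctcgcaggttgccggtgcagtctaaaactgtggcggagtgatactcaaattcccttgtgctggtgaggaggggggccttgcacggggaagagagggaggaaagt

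CCAAT, on both strands, was found 2 times in this window, and 32.0% of the 35116 windows of that length in the table hold it at least once. GGGCGG and TATAAA were not found on either strand, and 42.6% and 10.7% of windows hold them; none of the 3 motifs overlap each other here. The window has a GC content of 51.2%, against a median of 58.0% over the table.

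COL4A1 and COL4A2, the most widespread chains of basement membranes, are also transcribed away from each other, on chromosome 13. The distance between their starts depends on the annotation. There are 2 bases between the starts of their principal transcripts in GENCODE 29, and 126 between the starts in the RefSeq promoter table. COL4A1 (chr13:110148963-110307233) stood at 7.000 and 6.94 FPKM in NC, at 8.78 and 7.90 in si1, and at 8.33 and 7.74 in si2. COL4A2 (chr13:110305812-110513209) stood at 22.9 and 23.2 FPKM in NC, at 20.6 and 17.4 in si1, and at 18.8 and 19.97 in si2. All 4 knockdown libraries were above both NC libraries for COL4A1 and below both for COL4A2. Neither gene was called: the log2 fold change for both groups together was 0.20 (SE 0.07, adjusted p = 0.0878) for COL4A1 and −0.26 (SE 0.08, adjusted p = 0.0584) for COL4A2. Both genes were called with limma-voom on the reads. After a GC correction COL4A1 stood at 0.26 (adjusted p = 0.0285) and COL4A2 at −0.20 (adjusted p = 0.0447). For COL4A2 the corrected value was −0.33 (adjusted p = 0.0121) in si1 and −0.07 (adjusted p = 0.479) in si2. Its corrected call for both groups together was lost with the replicate block (adjusted p = 0.0625). With 1 library left out, its uncorrected value for both groups together ran from −0.31 to −0.20.

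The ratio of partner chains within a library shows this more directly. COL4A2 over COL4A1 was 3.27 and 3.35 in the NC libraries, 2.35 and 2.20 in si1, and 2.26 and 2.58 in si2. COL4A5 over COL4A6 was 0.944 and 0.960 in NC, 1.11 and 1.30 in si1, and 1.40 and 1.22 in si2. In both pairs the 4 knockdown libraries lay on 1 side of both NC libraries. The exact permutation test, two-sided and of 4 knockdown against 2 NC libraries, gave p = 0.133 for each (0.178 adjusted over 4 pairs), the smallest p this design allows. COL5A1 over COL5A2 was 226 and 241 in NC, 117 and 91.5 in si1, and 131 and 74.9 in si2, with the same exact p, on the 18 to 65 reads of COL5A2. For COL6A1 over COL6A2, whose values follow, the exact permutation p was 0.667 (0.667 adjusted). Because that test pools si1 and si2, it cannot decide whether a ratio differed in si2 alone. Per length of the principal transcripts the NC ratio of COL4A2 over COL4A1 was 4.41. COL4A3 and COL4A4, chains found in kidney and lung basement membranes, were below the filter. COL4A4 had 67 and 51 reads in the NC libraries, 110 and 83 in si1, and 31 and 43 in si2, with the si1 libraries highest. For si2 against si1 it gave −0.35 (SE 0.11, adjusted p = 0.147) on log2(FPKM + 1) without the filter. The value was −1.28 (SE 0.34, adjusted p = 0.00278) in limma-voom on genes averaging at least 10 reads, chosen after seeing the data. COL4A3, named after its values were seen, had 4 to 26 reads per library.

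**Figure D4:**
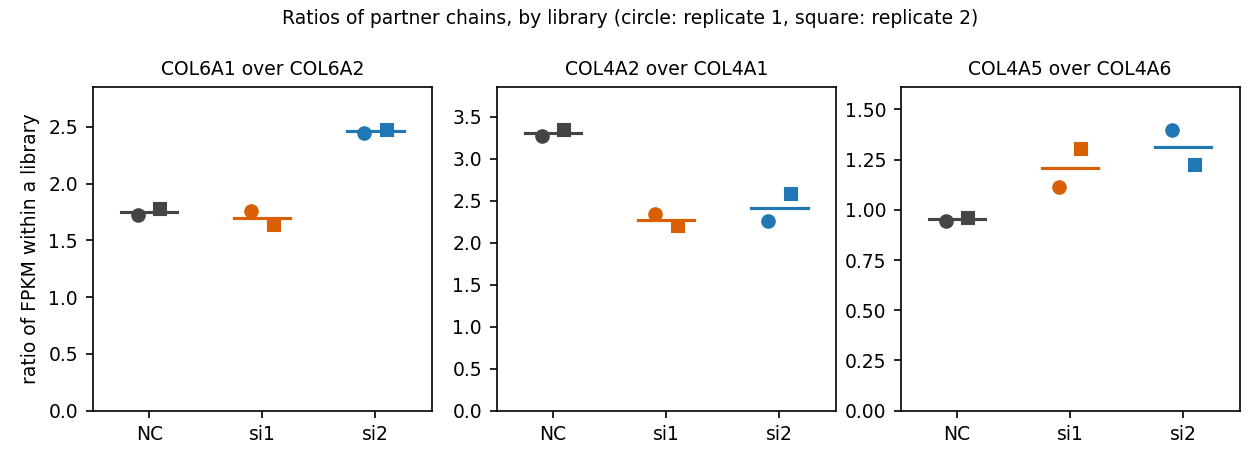
Ratio of the FPKM of 2 partner chains within each library (vertical axes from 0), with lines at the group means, for COL6A1 over COL6A2, COL4A2 over COL4A1 and COL4A5 over COL4A6. The si2 libraries stand apart for COL6A1 over COL6A2 (2.45 and 2.48), and the NC libraries for COL4A2 over COL4A1 (3.27 and 3.35).

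Collagen VI is assembled from a COL6A1 chain, a COL6A2 chain and a longer partner, and COL6A2 moved in opposite directions in the 2 knockdown groups. COL6A2 stood at 137 and 141 FPKM in NC, at 176 and 159 in si1, and at 95.7 and 103 in si2. The si1 libraries lay above NC and the si2 libraries below it, with no overlap. The log2 fold change was 0.26 (SE 0.07, adjusted p = 0.0348) in si1 and −0.49 (SE 0.07, adjusted p = 0.00309) in si2, and the value for si2 against si1 was −0.75 (SE 0.07, adjusted p = 0.000355). The fall in si2 and the difference from si1 passed the threshold in each of the 13 alternatives run, while the rise in si1 was lost with each of NC replicates 1 and 2, si1 replicate 1 and si2 replicates 1 and 2 left out (adjusted p = 0.056 to 0.181), without the filter, and after the GC correction (0.13 (adjusted p = 0.0796)).

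COL6A1 stood at 236 and 252 FPKM in NC, at 309.7 and 259.5 in si1, and at 234 and 254 in si2. Both NC libraries lay within the span of the si2 libraries, and both si1 libraries lay above them. No comparison passed the threshold: 0.22 (SE 0.09, adjusted p = 0.132) in si1 and 0.00 (SE 0.09, adjusted p = 0.997) in si2. The 2 genes lie on chromosome 21, in the same orientation. COL6A1 over COL6A2 was 1.72 and 1.78 in NC, 1.76 and 1.64 in si1, and 2.45 and 2.48 in si2, so the si2 libraries stood apart from all others. Of the longer partner chains, COL6A3, named after its values were seen, had 2 to 15 reads per library, COL6A6 0 to 9, and COL6A5 0.

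COL7A1 (ENSG00000114270, chr3:48564073-48595267), the only chain of the anchoring fibril, stood at 17.9 and 19.6 FPKM in NC, at 14.7 and 12.6 in si1, and at 20.1 and 22.05 in si2. The si1 libraries were the lowest and the si2 libraries the highest, with no overlap between groups. It fell in si1, with a log2 fold change of −0.43 (SE 0.09, adjusted p = 0.0183). In si2 the value was 0.16 (SE 0.09, adjusted p = 0.242), and si2 against si1 gave 0.59 (SE 0.09, adjusted p = 0.00304). Fits that left out NC replicate 1, NC replicate 2 or si1 replicate 2 no longer called the fall in si1 (adjusted p = 0.0617, 0.114 and 0.0602), nor did the fit with no filter on low values, while the difference between si2 and si1 passed in each of 13 alternatives. After the GC correction COL7A1 was called in both groups, at −0.54 (adjusted p = 0.00193) in si1 and 0.35 (adjusted p = 0.00945) in si2.

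COL18A1 (chr21:45405137-45513720), a basement membrane collagen whose end is released as endostatin, stood at 31.8 and 35.8 FPKM in NC, at 43.98 and 35.4 in si1, and at 31.02 and 32.4 in si2. Only si1 replicate 1 lay clear of the other libraries, and no comparison was called, with 0.22 (SE 0.11, adjusted p = 0.194) in si1 and −0.31 (SE 0.11, adjusted p = 0.0617) for si2 against si1. Its exons share 1401 bases, 16.4% of its counted length, with SLC19A1 on the opposite strand, and nothing states that the counting used strand.

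Of the fibril-associated collagens with interrupted triple helices, 3 of 10 were tested. COL12A1 (ENSG00000111799, chr6:75084326-75206051), which coats collagen I fibrils, stood at 7.19 and 7.61 FPKM in NC, at 6.07 and 5.27 in si1, and at 4.42 and 4.15 in si2. The groups descended from NC through si1 to si2 without overlap. It fell in both groups together, with a log2 fold change of −0.50 (SE 0.08, adjusted p = 0.00628). The values were −0.33 (SE 0.09, adjusted p = 0.0395) in si1, −0.67 (SE 0.09, adjusted p = 0.00272) in si2 and −0.33 (SE 0.09, adjusted p = 0.0257) for si2 against si1. The fall in si2 passed in each of 13 alternatives. Leaving out NC replicate 1 or 2 ended the call for both groups together (adjusted p = 0.0501 and 0.0718). The call in si1 was lost with any library but si1 replicate 1 left out (highest adjusted p = 0.187), without the filter (adjusted p = 0.119) and after the GC correction (adjusted p = 0.0524). The call for si2 against si1 was lost without si1 replicate 1, si2 replicate 1 or si2 replicate 2 (adjusted p = 0.0976, 0.0698 and 0.116) and without the filter (adjusted p = 0.0819).

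COL16A1, found near basement membranes and in cartilage, stood at 5.67 and 5.03 FPKM in NC, at 5.02 and 5.21 in si1, and at 4.51 and 4.54 in si2, and was not called in any comparison. COL9A3, a chain of cartilage collagen IX, stood at 1.12 and 1.21 FPKM in NC, at 1.69 and 1.38 in si1, and at 1.26 and 1.54 in si2, on 91 to 134 reads, and was not called either. COL22A1, a collagen of tissue junctions, had 82 and 95 reads in the NC libraries, 68 and 68 in si1, and 80 and 35 in si2, with si2 replicate 2 alone at the low end. COL8A1, a short-chain collagen of vessels and cornea, stood at 2.84 and 3.06 FPKM in NC, at 3.41 and 3.35 in si1, and at 3.22 and 3.29 in si2, and differed by 0.13 (SE 0.08, adjusted p = 0.292) for both groups together.

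None of the 4 transmembrane collagens reached a mean of 1 FPKM. COL13A1 (ENSG00000197467, chr10:69801867-69964275), a collagen of cell junctions, came nearest, at 1.07 and 0.561 FPKM in NC, at 0.374 and 0.201 in si1, and at 1.48 and 1.46 in si2. These values rest on 105 and 58 reads in the NC libraries, 36 and 20 in si1, and 138 and 130 in si2. The si1 libraries were the lowest and the si2 libraries the highest, with NC between and no overlap. Without the filter, si2 against si1 gave a log2 fold change of 0.94 (SE 0.19, adjusted p = 0.0434), and the values against NC were −0.48 (SE 0.19, adjusted p = 0.279) in si1 and 0.46 (SE 0.19, adjusted p = 0.274) in si2. limma-voom on genes averaging at least 10 reads, chosen after seeing the data, called all 3. The values were 2.40 (SE 0.38, adjusted p = 6.72e-06), −1.46 (SE 0.40, adjusted p = 0.00674) and 0.94 (SE 0.26, adjusted p = 0.00661). COL13A1 takes the same order across groups as COL7A1.

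COL17A1, the hemidesmosome collagen of basal keratinocytes, and the other 2 transmembrane collagens were named after their values were seen. COL17A1 had 8 and 12 reads in the NC libraries, 10 and 35 in si1, and 37 and 39 in si2. si2 lay above NC without overlap, while the si1 libraries spanned much of the range. Its log2 fold change in si2 was 0.32 (SE 0.10, adjusted p = 0.169) without the filter and 2.04 (SE 0.60, adjusted p = 0.00873) in that limma-voom fit. COL25A1 had 0 to 2 reads per library and COL23A1 3 reads in si2 replicate 2 and 0 elsewhere.

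Between si2 and si1, 5 of 15 tested collagens differed, 1 higher and 4 lower in si2, where 38.5% of all tested genes were called (19.9% higher and 18.6% lower). COL7A1 was higher, and COL6A2, COL4A6, COL12A1 and COL4A5 were lower. The median over the 15 was −0.14, against 0.01 over all tested genes.

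The GC content of the transcripts moved with these values. The tested collagens had a median transcript GC content of 61.3%, from 46.3% in COL12A1 to 67.5% in COL9A3, against 48.3% over all tested genes. Over the 12316 tested genes with a value, Spearman's correlation of log2 fold change with GC content was −0.36 in si2, 0.09 in si1 and −0.36 for si2 against si1; genes are not independent replicates. Libraries of the same group also differed along GC content, with a correlation of 0.38 for si1 replicate 1 minus replicate 2, −0.24 for NC and −0.20 for si2. In si1, 13 of 15 collagens were higher in replicate 1 than in replicate 2, by a median of 0.18 on the log2 scale, where 48.2% of all tested genes were higher. What produced the GC differences was not tested.

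A GC correction, chosen after seeing the data, removed from each library the loess trend of its log2 values on transcript GC content. With it, the log2 fold change of COL1A1 was 0.45 (adjusted p = 0.00513) for both groups together, 0.33 (adjusted p = 0.0249) in si1 and 0.57 (adjusted p = 0.00298) in si2. COL5A1 was then called higher in si2 at 0.46 (adjusted p = 0.00805) and COL4A1 at 0.28 (adjusted p = 0.0324). Called higher in si2 than in si1 only after the correction were COL1A1 (0.25, adjusted p = 0.0482), COL5A1 (0.38, adjusted p = 0.0123) and COL4A2 (0.27, adjusted p = 0.0202). COL12A1 and COL4A6 kept their falls in si2, at −0.70 (adjusted p = 0.00246) and −0.56 (adjusted p = 0.00285), and the fall of COL12A1 in si1 missed the threshold (adjusted p = 0.0524). COL6A2 in si2 stood at −0.29 (adjusted p = 0.00523), against −0.49 without the correction. The correction turned 7 uncalled differences of collagens to the other side of 0, 6 of them in si2 against si1. The collagens called became 6 of 15 for both groups together, 3 in si1, 7 in si2 and 8 between si2 and si1. Of all 12316 genes, 2848, 3153, 3301 and 4357 were called after the correction in the same comparisons. Without it the counts over all tested genes were 2529, 2758, 3578 and 4743.

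Genes that act on collagen were described from lists of the pathway. Their counts stand beside the shares of all tested genes: 8.73% up and 11.8% down for both groups together, 9.47% and 12.9% in si1, and 13.6% and 15.4% in si2. Of 18 tested genes that hydroxylate, glycosylate or fold the chains, the mean of both groups gave 0 up and 5 down, si1 gave 1 up and 4 down, and si2 gave 3 up and 5 down, with medians of 0.00, 0.01 and −0.01. P3H2, which hydroxylates prolines of collagen IV in particular, stood at 16.5 and 16.3 FPKM in NC, at 7.68 and 8.13 in si1, and at 9.36 and 8.72 in si2, and fell in both groups together, with a log2 fold change of −0.88 (adjusted p = 0.000467). PLOD2, which prepares lysines for cross-links, fell in si2 (−0.85 (adjusted p = 0.000605)) and stood at 0.05 (adjusted p = 0.677) in si1. COLGALT1, which adds galactose to collagen, fell in si2 as well (−0.74 (adjusted p = 0.00121); 0.20 (adjusted p = 0.129) in si1). For PLOD2 and COLGALT1 si2 against si1 gave −0.90 (adjusted p = 0.000271) and −0.94 (adjusted p = 0.000284).

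Of 6 tested cross-linking genes, 0 rose and 2 fell in both groups together (8.73% and 11.8% of all tested genes), with a median of −0.15. PXDN, the peroxidase that forms the sulfilimine bonds of collagen IV, stood at 29.4 and 30.7 FPKM in NC, at 19.7 and 14.6 in si1, and at 6.38 and 6.89 in si2. The groups descended without overlap, with a log2 fold change of −0.79 (adjusted p = 0.00613) in si1 and −2.03 (adjusted p = 0.000186) in si2; without the filter the call in si1 was lost (adjusted p = 0.0525). LOXL4, a lysyl oxidase, fell in both groups (−0.32 (adjusted p = 0.0268) in si1 and −0.49 (adjusted p = 0.00461) in si2). The call in si1 was lost with each NC and each si1 library left out (adjusted p = 0.0517 to 0.135). Of 10 export genes, 1 rose and 1 fell in both groups together, and of 6 tested propeptide processing genes 0 rose and 2 fell. For both groups together MIA2, a relative of the collagen export receptor TANGO1, rose (0.35 (adjusted p = 0.0202)). PCOLCE2, an enhancer of propeptide cleavage, fell (−0.50 (adjusted p = 0.0106)), and neither gene was called in si1. Both calls were lost without NC replicate 1 or NC replicate 2, at an adjusted p of 0.105 and 0.144 for MIA2 and 0.0723 and 0.0958 for PCOLCE2, and that of MIA2 also without si2 replicate 1 (adjusted p = 0.061).

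For both groups together, 1 of 8 basement membrane partners and 2 of 8 hemidesmosome and laminin-332 genes fell, and 0 rose, where 11.8% of all tested genes fell and 8.73% rose. LAMB1, a laminin chain, fell in both groups (−0.57 (adjusted p = 0.00142) in si1 and −0.34 (adjusted p = 0.00928) in si2), and the call in si2 was lost with each NC and each si2 library left out (adjusted p = 0.0538 to 0.0705). LAMB3, a chain of laminin-332, which COL7A1 and COL17A1 protein meet at the epithelial base, stood at 206 and 215 FPKM in NC, at 140.2 and 126 in si1, and at 138 and 139.7 in si2. Its log2 fold change was −0.66 (adjusted p = 0.000936) in si1 and −0.60 (adjusted p = 0.00121) in si2. Within si2 alone, 1 basement membrane gene rose and 4 fell, where 13.6% of all tested genes rose and 15.4% fell. HSPG2 (perlecan, −0.75 (adjusted p = 0.0351)) and AGRN (agrin, −0.39 (adjusted p = 0.0451)) among them lost the call after the GC correction and with each NC and each si2 library left out (adjusted p = 0.0818 to 0.146 for HSPG2 and 0.088 to 0.214 for AGRN).

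Of 7 tested collagen receptors, 0 rose and 1 fell in the mean of both groups, and 4 rose and 1 fell in si2. The shares of all tested genes were 8.73% and 11.8% for the mean and 13.6% and 15.4% in si2. The 1 that fell in the mean was ITGA2 (−0.44), which was called in opposite directions in the groups. With the 4 knockdown libraries fitted as 1 group ITGA2 was not called (adjusted p = 0.755). ITGA2, the integrin chain that binds collagen I, stood at 108 and 104 FPKM in NC, at 49.04 and 43.7 in si1, and at 131 and 129.9 in si2. It fell in si1 (−1.18 (adjusted p = 0.000131)) and rose in si2 (0.30 (adjusted p = 0.0178)), a call lost after the GC correction and with each NC and each si2 library left out (adjusted p = 0.0763 to 0.114). Of 6 tested genes that cleave or shed collagen, 0 rose and 1 fell in si1, beside 9.47% and 12.9% of all tested genes. In the mean of both groups 2 rose and 0 fell, neither of them called in si1: MMP14, a membrane collagenase (0.34 (adjusted p = 0.00907)), and MMP2, a gelatinase (0.27 (adjusted p = 0.0194)). Without NC replicate 1 or NC replicate 2 neither passed (adjusted p = 0.0941 and 0.0669 for MMP14 and 0.146 and 0.11 for MMP2), nor did MMP2 without si2 replicate 1 or si2 replicate 2 (adjusted p = 0.0527 and 0.0624). Of 4 tested fibril partners, 2 rose and 0 fell: FN1 (fibronectin), at 101 and 101 FPKM in NC, at 165 and 132 in si1, and at 194 and 199 in si2, had a log2 fold change of 0.75 (adjusted p = 0.00197). THBS1 (thrombospondin) was at 0.25 (adjusted p = 0.0117), but was called lower in si1 (−0.25 (adjusted p = 0.017)) and higher in si2 (0.75 (adjusted p = 0.000274)). Without NC replicate 1 or NC replicate 2, its calls for both groups together (adjusted p = 0.099 and 0.106) and in si1 (adjusted p = 0.112 and 0.0984) were lost. Of 12 regulators of collagen genes, 1 rose and 2 fell in both groups together. SMAD3, which carries the TGF-beta signal to collagen promoters, fell (−0.62 (adjusted p = 0.000983)), while the receptor TGFBR1 rose (0.44 (adjusted p = 0.00673)). CREB3L2, a driver of the secretory pathway, fell for both groups together (−0.47 (adjusted p = 0.0107)) but was not called in si2. CREB3L2 was not called without NC replicate 1 or NC replicate 2 (adjusted p = 0.0733 and 0.0952), and TGFBR1 without NC replicate 2 (adjusted p = 0.0699). With the 4 knockdown libraries fitted as 1 group, the calls of MIA2, PCOLCE2, MMP14, MMP2, FN1, THBS1, SMAD3, CREB3L2 and TGFBR1 for both groups together were lost, and that of P3H2 was not.

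**Figure D5:**
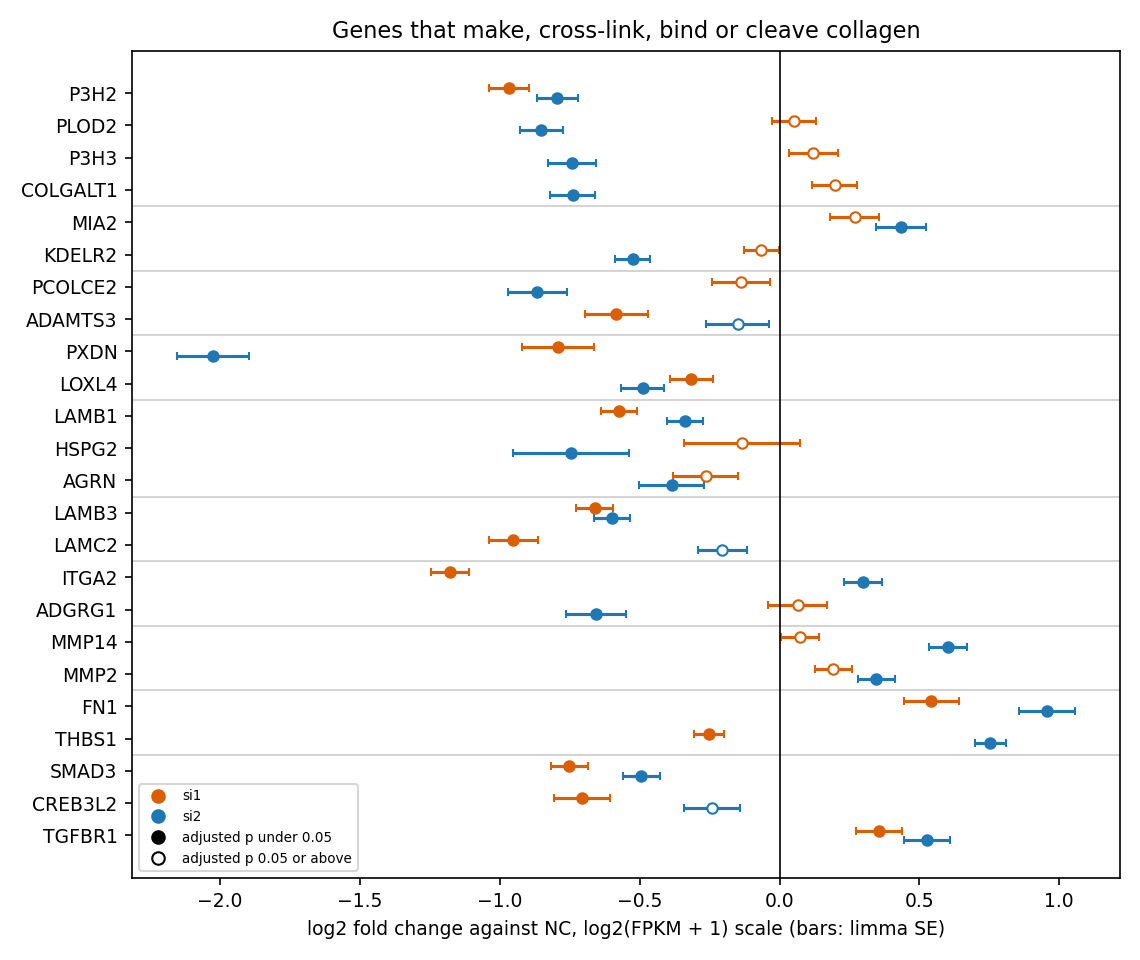
Log2 fold change against NC on the log2(FPKM + 1) scale (horizontal axis) with limma's SE in si1 and si2 for 24 genes that modify, export, process, cross-link, surround, bind, cleave or regulate collagens; grey lines divide the lists, and filled points have an adjusted p under 0.05. PXDN reaches −2.03 in si2, and ITGA2 and THBS1 lie on opposite sides of 0 in the 2 groups.

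Markers of cells that make most collagen in tissue were near 0. The 7 fibroblast markers summed to 2.53 and 2.54 FPKM in NC, 2.95 and 2.33 in si1, and 3.31 and 2.76 in si2, with 1 of 7 at 1 FPKM or more and POSTN at 0 reads. The 4 endothelial markers summed to 0.303 to 0.510 FPKM, with CDH5 at 0 reads, and the 3 immune markers to 0.0435 to 0.122, with CD3E at 0. The 6 markers of simple epithelium summed to 354.6 and 379.0 FPKM in NC, 376.1 and 370.4 in si1, and 264.0 and 277.1 in si2, with the si2 libraries lowest. Of these, 5 were at 1 FPKM or more and tested, and they moved in different directions. In si1 3 rose and 1 fell, where 9.47% and 12.9% of all tested genes did. In si2 2 rose and 2 fell, where 13.6% and 15.4% of all tested genes did, so the lower sum does not hold for each marker. The 5 squamous and basal markers summed to 6.02 and 6.69 FPKM in NC, 6.002 and 5.58 in si1, and 13.9 and 11.7 in si2, with 1 of 5 tested and DSG3 at 0 reads. The part of the marker differences in the si2 values of any collagen, higher or lower, was not tested.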

How the data were processed

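The authors deposited FPKM for 58735 genes in 6 libraries, with gene length. Per the submitters' processing notes they used hg38; the sources used here name no aligner, counter or annotation. Coordinates of 58724 genes, all 44 collagens included, equalled GENCODE 29. FPKM times gene length gave whole reads for 100% of values, within 0.001 reads, 14948607 to 17401392 per library; 3 reads were taken as the limit for a count of 0, covering counting error only. log2(FPKM + 1) was fitted with limma 3.58.1 (R 4.3.3), with 1 coefficient per group, 3 residual and 4.03 prior degrees of freedom and a variance trend, on the 12319 genes averaging 1 FPKM or more, with Benjamini-Hochberg adjustment; tests were two-sided. The text names each collagen at 1 FPKM or more, the 5 highest below it, those at 0 reads, KRT6A, and from each list up to 4 tested genes with the largest change in both groups together. The members, lists and tests were chosen with earlier results of these data known. Alternatives were a pseudocount of 0.1, no filter, median-ratio scaling, limma-voom on the recovered reads, a replicate block, the 4 knockdown libraries as 1 group, each library left out, and, chosen after seeing the data, GC correction with and without the block. A second limma-voom fit, also chosen after seeing the data, took genes averaging at least 10 reads and gave the limma-voom values of collagens below 1 FPKM. GC content had a value for 12316 genes. Promoters came from RefSeq, with an entry for 32 of 44 collagens.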

Additional observations from a re-analysis of the deposited data

Results flagged for a closer look

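There were 5 of 15 tested collagens that differed between si2 and si1, groups with the same stated target, by the test of the difference itself. Of all tested genes 38.5% were called in that comparison, so the collagens' share was not above the background. The log2 difference, si2 against si1, was −0.75 for COL6A2, 0.59 for COL7A1, −0.40 for COL4A6, −0.33 for COL12A1 and −0.31 for COL4A5. COL6A2 was called in opposite directions in the 2 groups, and COL7A1 was called lower in si1 and not called in si2. COL4A6, COL4A5 and COL12A1 were lower in si2 than in si1. After the GC correction the differences were −0.42 (adjusted p = 0.000804) for COL6A2, 0.89 (adjusted p = 0.000165) for COL7A1, −0.34 (adjusted p = 0.0139) for COL4A6, −0.40 (adjusted p = 0.0149) for COL12A1 and −0.32 (adjusted p = 0.0128) for COL4A5.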

How the results depend on the processing

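With 2 libraries per group, the count of collagens called depended on the setting. For both groups together (3 of 15), it was 0 with the 4 knockdown libraries as 1 group, 6 with GC correction, 7 with limma-voom on the reads, and 0 to 4 with 1 library left out; for all genes (2529) it was 84 with the libraries as 1 group, 1127 without the filter and 701 to 2844 with 1 library left out. In si1 (4 of 15) it was 9 with limma-voom, 0 without the filter, 2 with the replicate block and 0 to 5 with 1 library left out; for all genes (2758) it was 1414 without the filter and 1114 to 2443 with 1 left out. In si2 (5 of 15) it was 8 with limma-voom, 3 without the filter and 3 to 7 with 1 left out; for all genes (3578) it was 1785 and 1490 to 4047. For si2 against si1 (5 of 15) it was 8 with GC correction, with and without the block, and 2 to 7 with 1 library left out; for all genes (4743) it was 3130 without the filter and 2973 to 4367 with 1 left out. Leaving out NC replicate 1 or NC replicate 2 left 0 collagens called for both groups together and for si1. The cause was not tested, except that these fits hold fewer libraries, and that 29572 genes were adjusted over without the filter. The counts over all genes moved with the method too. limma-voom on the reads called 3545 genes for both groups together, 3763 in si1 and 4514 in si2. GC correction called 2848 for both groups together and 4357 for si2 against si1, and 4049 for the latter with the block.

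The replicate numbers did not pair the libraries: the correlations of same-numbered deviations were −0.05, 0.05 and −0.06. With the replicate number as a block, 3, 2, 4 and 5 collagens and 2058, 2335, 3121 and 4314 genes were called in the 4 comparisons; the calls lost were COL12A1 (adjusted p = 0.0595) and COL6A2 (adjusted p = 0.0642) in si1 and COL4A5 (adjusted p = 0.0671) in si2.

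GC correction, alone and with the replicate block, turned the sign of uncalled values: COL18A1 in si2 to 0.12, and, for si2 against si1, COL9A3 to 0.28, COL16A1 to 0.11, COL27A1 to 0.077, COL6A1 to 0.052, COL4A1 to 0.037 and COL18A1 to 0.034. With 1 library left out, signs turned for COL18A1 in both groups together (−0.014 to 0.15), for COL16A1 (−0.12 to 0.020), COL27A1 (−0.39 to 0.012), COL5A1 (−0.047 to 0.28), HSPG2 (−0.50 to 0.23), KDELR2 (−0.13 to 0.0039), MMP14 (−0.0061 to 0.15) and PLOD2 (−0.032 to 0.14) in si1, and for COL6A1 (−0.057 to 0.058) in si2. For si2 against si1 they turned for COL1A1 (−0.11 to 0.18), COL27A1 (−0.34 to 0.062), COL4A1 (−0.12 to 0.021), COL4A2 (−0.084 to 0.15) and COL9A3 (−0.17 to 0.0098). Of the 795 values of single tested collagens under alternatives, 661 kept their direction and side of the threshold. Collagens below 1 FPKM rest on at most 148 reads per library.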

Other observations

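The following collagens below 1 FPKM were chosen after their values were seen, and they did not take 1 direction. COL15A1, a relative of COL18A1 found in basement membranes of muscle and vessels, had 7 and 8 reads in the NC libraries, 8 and 5 in si1, and 24 and 34 in si2. The 2 si2 libraries lay above the others without overlap. The test on log2(FPKM + 1) without the filter gave a log2 fold change of 0.27 (SE 0.06, adjusted p = 0.0866) in si2. limma-voom on genes averaging at least 10 reads gave 2.01 (SE 0.64, adjusted p = 0.0159). COL15A1 reached that average only through the si2 libraries, so this p-value is no separate support for the rise. COL21A1 had 21 and 16 reads in the NC libraries, 26 and 28 in si1, and 28 and 33 in si2, with the knockdown libraries above the NC libraries. COL9A2, a chain of cartilage collagen IX, had 7 and 30 reads in the NC libraries, 18 and 24 in si1, and 8 and 8 in si2, with the NC libraries at both ends. COL8A2, a short-chain collagen, had 11 and 6 reads in the NC libraries, 10 and 10 in si1, and 3 and 3 in si2, with both si2 libraries the lowest. COL14A1 had 12 reads in si2 replicate 1 and 0 to 3 in the others, so 1 library carried its value.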
